A study of Mus musculus with 16 samples.

Results

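Hematopoietic stem-like cells were taken from the 6 single-cell libraries of lineage-negative c-Kit+ bone marrow (BM) cells of BALB/c mice. Cells were kept with 201 to 5999 detected genes and at most 10% mitochondrial unique molecular identifiers (UMIs, 1 per captured RNA molecule). A kept cell was a member when Hlf, Mecom and Procr together had at least 2 UMIs, Dntt and the sum of Klf1 and Car1 at most 1 each, and Elane at most 2. The rule found 3876 members among 28155 kept c-Kit+ cells, in a series of 16 libraries with 77636 cell barcodes. Of the libraries used, 2 came from WT mice that bore no tumor and are labelled as controls, 2 from mice bearing 2208L tumors and given vehicle, and 2 from 2208L tumor–bearing mice given IACS-70654. 2208L is a transplantable Trp53-null mammary tumor line grown in BALB/c hosts, IACS-70654 is an oral inhibitor of the CBP/P300 bromodomain, and treatment lasted 7 days by the series record. The text of the study gives a time shorter by a day for bone marrow, and which holds for these libraries was not settled. WT mice received neither the tumor nor vehicle, so vehicle against WT compares both together. Cells of 3 mice were pooled for a sample, and no source states whether the 2 libraries of a group came from separate pools, so p-values measure the spread between libraries, which may be technical. The sort kept live CD45+ cells that carried c-Kit and lacked CD11b, Gr-1, B220, Ter119 and CD3e.

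Hematopoietic stem cells sit at the top of blood formation, mostly rest outside the cell cycle in BM niches, and give rise to multipotent and then to lineage-committed progenitors. Transcription factors such as Hlf, Mecom, Meis1, Prdm16 and Erg maintain them, and receptors such as Kit, which binds stem cell factor, receive signals from the niche. CBP and P300 are histone acetyltransferases whose bromodomains bind acetylated lysines at enhancers, and inflammation from a distant tumor is known to raise the output of neutrophils from the marrow.

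The members carried genes of early blood progenitors beyond those of the rule. After each cell was thinned to 3000 UMIs, Meis1 was detected in 83.4% to 91.9% of members per library, against 6.67% to 9.02% of erythroid cells (Klf1 plus Car1 of at least 10), which stand here for free RNA. Cd34 was detected in 35.3% to 57.7% of members against 1.87% to 3.34% of erythroid cells. Both genes were also present in c-Kit+ cells that met the other limits of the rule but had 0 UMIs of Hlf, Mecom and Procr. Per 1000000 UMIs without thinning, Meis1 was at 281 to 715 in those cells and 756 to 1119 in members. Cd34 was at 120 to 202 in those cells and 171 to 306 in members. Members were higher within each library, but the ranges of Cd34 overlapped between libraries. Mllt3 did not set the members apart from erythroid cells, with 31.5% to 38.5% in members and 27.3% to 35.1% in erythroid cells. Per 1000000 UMIs without thinning, Mllt3 was at 150 to 194 in members and 76.5 to 93.1 in the c-Kit+ cells with 0 UMIs of the 3 stem genes. Procr, which encodes the receptor EPCR, had a UMI in 4.76% to 7.92% of members, so that membership rested almost wholly on Hlf and Mecom. Some other genes used to mark stem cells were sparse even without thinning: Fgd5 was detected in 2.01% to 6.15% of members and Ly6a, which encodes Sca-1 and is weakly expressed in BALB/c marrow, in 0.806% to 4.78%. Slamf1 was detected in 3.60% to 21.9% of members without thinning. RNA of the myeloid granule gene Mpo was found in 73.1% to 77.2% of thinned members and in 44.3% to 50% of erythroid cells. The members were therefore a broad group of early progenitors that express stem cell genes, and the name stem-like is used in that sense.

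The WT libraries held 462 and 392 members, the vehicle libraries 732 and 355 and the IACS-70654 libraries 1241 and 694, with 2253533 to 6415319 UMIs summed per library. The median member had 5696 to 6033 UMIs in WT and vehicle but 4371 and 4624 in IACS-70654, and 2025 to 2432.5 genes over the 6 libraries. Mitochondrial UMIs made up 2.79% to 3.23% of a median member, no barcode was shared between libraries, and 2 members had over 5 times the median UMIs of their library. Defining genes of mature cells were scarce: summed levels were 52.9 to 63.9 CPM (UMIs per 1000000 member UMIs of the library) over 10 neutrophil genes, 22.7 to 44.4 over 8 B cell genes, 12.6 to 32.8 over 8 macrophage genes and 2.66 to 8.24 over 8 stromal genes, of which 5 were at 0. The sum of 8 T and NK cell genes, 39.3 to 111 CPM, was nearly all Nkg7, and that of 8 endothelial genes, 96.3 to 123 CPM, was mainly Egfl7.

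The share of stem-like cells among kept c-Kit+ cells was higher in both IACS-70654 libraries than in the others. The share was 11.9% (exact binomial 95% confidence interval 10.9 to 12.98) and 12.9% (11.7 to 14.1) in the WT libraries. It was 11.1% (10.4 to 11.9) and 12.5% (11.3 to 13.8) under vehicle, then 16.5% (15.7 to 17.4) and 16.1% (14.99 to 17.2) under IACS-70654, intervals that cover counting error only. The 2 IACS-70654 intervals lay above those of the other 4 libraries, whereas WT and vehicle overlapped. The means were 12.4% ± 0.690 in WT, 11.8% ± 0.974 in vehicle and 16.3% ± 0.306 in IACS-70654 (SD, n = 2), a difference of 4.46 percentage points and a ratio of 1.38 for IACS-70654 over vehicle. The exact two-sided permutation test gave p = 0.333 for IACS-70654 against vehicle, which is the smallest that 2 against 2 libraries allow, and p = 0.667 for vehicle against WT. IACS-70654 lay 3.88 points above WT, a ratio of 1.31.

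The share depends on how many UMIs a cell yields, and IACS-70654 cells yielded fewer. The median kept c-Kit+ cell had 6712 and 6954 UMIs in IACS-70654 and 7810 to 9512 in the other libraries. When the rule was applied to cells thinned to 3000 UMIs, the share was 8.18% and 9.59% in WT, 8.66% and 9.50% under vehicle and 11.9% and 11.8% under IACS-70654. Thinning left out cells under 3000 UMIs, among them 222 and 105 members in IACS-70654 and 23 to 71 in the other libraries. Among the deeper cells the IACS-70654 libraries were highest. Before thinning, a Hlf UMI was found in 27.6% and 27.3% of kept cells under IACS-70654 and in 17.7% to 20.5% in the other libraries. Kept cells with a Mecom UMI were 25.1% and 25.4% in WT, 27.7% and 27.4% under vehicle and 25.8% and 24.2% under IACS-70654, so that IACS-70654 lay below vehicle and overlapped WT. These are shares of sorted cells, so more stem-like cells and fewer other c-Kit+ cells cannot be told apart, and the part of Hlf, which is in the rule and was itself higher with IACS-70654, was not tested.

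**Figure D1:**
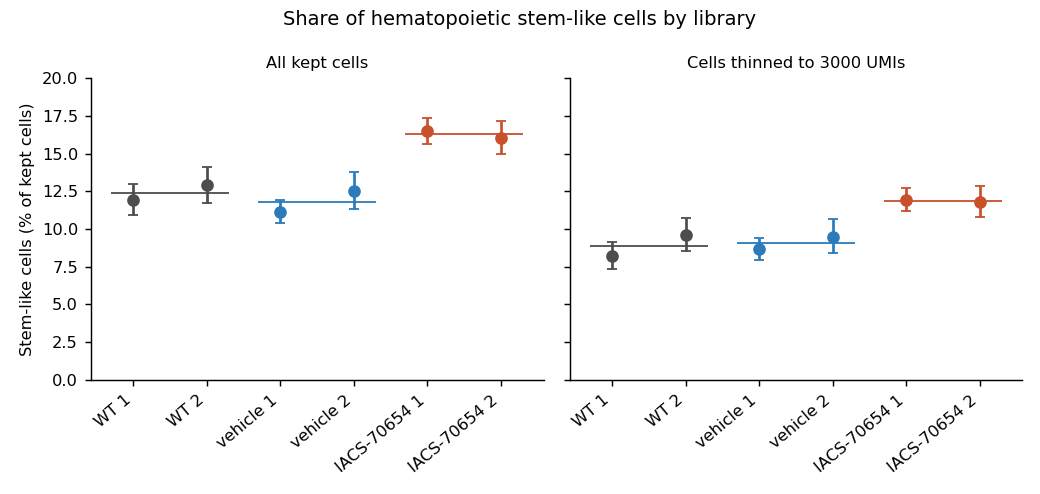
Share of hematopoietic stem-like cells among kept c-Kit+ cells (percent, y axis) in each of the 6 libraries, for all kept cells (left) and for cells thinned to 3000 UMIs (right). Points are libraries, bars exact binomial 95% confidence intervals and lines group means; the IACS-70654 libraries sit at 16.5% and 16.1% on the left and at 11.9% and 11.8% on the right, above the other 4 in both.

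The members were chosen by raw UMIs of 7 genes, and the levels of the 3 stem cell genes among them are given without a test. Hlf, a leucine zipper factor of stem cells, was at 264 and 271 CPM in WT, 259 and 264 under vehicle and 426 and 413 under IACS-70654. Mecom, which encodes the zinc finger factor EVI1, was at 522 and 565 CPM in WT, 628 and 664 under vehicle and 561 and 535 under IACS-70654. Hlf was thus highest in IACS-70654 and Mecom in vehicle. Members with Mecom but no Hlf UMI were 31.0% and 31.1% in WT, 28.3% and 30.7% under vehicle and 19.0% and 20.2% under IACS-70654. Members with Hlf but no Mecom UMI were 8.44% and 8.93%, 5.87% and 3.94%, and 15.6% and 17.1% in the same order. In vehicle replicate 1, Meis1 was at 449 CPM in cells just outside the rule with 1 UMI of the 3 genes, at 544 just inside with 2 UMIs and at 888 with more than 3, so the threshold cuts through a gradient.

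Gene levels were compared on UMIs summed over the members of each library, with edgeR's quasi-likelihood test across 11745 genes that passed a filter on low counts; rule genes were left out. A gene was called when its Benjamini-Hochberg adjusted p was under 0.01 and its log2 change over 0.5 in size. Vehicle against WT gave 61 genes higher (0.519% of those tested) and 17 lower (0.145%). IACS-70654 against vehicle gave 169 higher (1.44%) and 315 lower (2.68%), and IACS-70654 against WT 246 higher (2.09%) and 320 lower (2.72%). Leaving out 1 library moved some counts by over 1.5 times. IACS-70654 against vehicle gave 77 higher and 187 lower without vehicle replicate 1 and 84 and 167 without IACS-70654 replicate 1. IACS-70654 against WT gave 159 and 213 without WT replicate 1 and 200 lower without IACS-70654 replicate 1, and vehicle against WT gave 10 lower without vehicle replicate 1. The comparisons share libraries, so they are not independent of each other. With 2 libraries a group, libraries that do not overlap were common. IACS-70654 lay above vehicle in this way in 3592 genes and below in 2888, and 483 called genes were among them. The numbers were 3091 and 1858 for vehicle against WT and 4359 and 2444 for IACS-70654 against WT. A lack of overlap is therefore given as a description. Scaling by total UMIs alone, without TMM factors, shifted the median of all genes by at most 0.08 (log2) and changed the split for IACS-70654 against WT to 380 higher and 228 lower, 62.5% higher in place of 43.5%. With IACS-70654, both numbers fell to 109 and 247 against vehicle when members that carried UMIs of the megakaryocyte, basophil or antibody genes described further on (the marked cells) were left out.

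Tumor-bearing vehicle mice differed from WT by a small set of genes, among them Ifitm1, Vldlr, Wfdc17 and Clnk. Ifitm1 (ENSMUSG00000025491, chr7:140967429-140969827, GRCm38), an interferon-inducible membrane protein that marks early progenitors, was at 547 and 563 CPM in WT, 1205 and 1316 under vehicle and 436 and 445 under IACS-70654. It rose by 1.14 ± 0.05 (log2, SE) in vehicle over WT (edgeR adjusted p = 1.7e-16) and fell by 1.55 ± 0.05 with IACS-70654 against vehicle (edgeR adjusted p = 2.6e-20). The vehicle libraries stood far above the other 4, and IACS-70654 lay just below WT. Wfdc17, a secreted WAP-domain protein, had the same shape, with 44.8 and 59.4 CPM in WT, 133 and 192 under vehicle and 58.3 and 48.9 under IACS-70654 (log2 changes 1.56 ± 0.14 and −1.55 ± 0.12). Clnk, an adaptor of immune receptor signalling, was at 32.2 and 37.9, 86.7 and 94.1, and 35.2 and 32.9 CPM in that order (1.32 ± 0.12 and −1.41 ± 0.10). For both genes, WT and IACS-70654 overlapped and vehicle was apart from them.

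Vldlr and Angpt1 differed between WT and vehicle, and their vehicle and IACS-70654 libraries overlapped. Vldlr (ENSMUSG00000024924, chr19:27216480-27254231, GRCm38), a lipoprotein receptor, was at 18.6 and 19.1 CPM in WT, 69.0 and 77.7 under vehicle and 75.9 and 72.2 under IACS-70654. It rose by 1.90 ± 0.14 in vehicle over WT (edgeR adjusted p = 9.1e-11), and vehicle and IACS-70654 overlapped (edgeR adjusted p = 0.96). Angpt1 (ENSMUSG00000022309, chr15:42424667-42676977, GRCm38), the ligand of the receptor Tek that stem cells themselves make, was at 1542 and 1743 CPM in WT, 1023 and 1108 under vehicle and 1118 and 1053 under IACS-70654. It fell by 0.67 ± 0.05 in vehicle against WT (edgeR adjusted p = 5.2e-11). Both WT libraries lay above the other 4, which overlapped.

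Other genes named for vehicle against WT were smaller in change, low in level or carried by few cells. The noncoding RNA Meg3 had 11 and 4 UMIs in WT and 90 and 34 in vehicle and rose by 2.62 ± 0.35 (edgeR adjusted p = 1.4e-05), and by 2.71 without the marked cells; DESeq2 gave no adjusted p for it. The basophil and eosinophil genes Ear6 and Prss34 rose by 2.76 and 2.55. Among those that fell were Car2 (log2 change −0.61 ± 0.07), Plek (−0.58 ± 0.10), Pcdh7 (−0.54 ± 0.11), Klf6 (−0.54 ± 0.11), Jun (−0.54 ± 0.05) and Apoe (−0.53 ± 0.07). Of these, Jun alone held its call without any single library. Without WT replicate 2 the changes were −0.49 in Car2, −0.49 in Plek, −0.31 in Pcdh7 and −0.47 in Apoe, without vehicle replicate 1 −0.49 in Pcdh7, −0.50 in Plek and −0.43 in Klf6, without vehicle replicate 2 −0.42 in Apoe, and without WT replicate 1 −0.42 in Klf6, all short of a call. The antibody genes Igkc, Ighm and Jchain also rose (log2 changes 4.50 ± 0.31, 2.66 ± 0.36 and 3.21 ± 0.56), but in vehicle 92.7% and 97.2% of Igkc UMIs came from 5 cells per library, against 5.94% and 6.92% in WT. The remaining members, chosen by these same genes, differed between vehicle and WT by −0.04 in Igkc, 0.16 in Ighm and −0.17 in Jchain, given as a description without a test.

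Immediate early genes moved in both directions between WT and vehicle. Of 27 tested, 4 rose and 2 fell (0.519% and 0.145% of all genes), with a median log2 change of 0.12 against −0.00035 over all genes. Junb, an AP-1 subunit, was at 138 and 142 CPM in WT, 218 and 227 under vehicle and 202 and 191 under IACS-70654 (0.63 ± 0.07 for vehicle against WT). Ier3 rose by 0.61 ± 0.08, Ier5 by 0.63 ± 0.14 and Socs3, which restrains cytokine signalling, by 1.89 ± 0.35, while Jun and Klf6 fell as above. The call was lost in Ier5 without WT replicate 1 (0.61), WT replicate 2 (0.64) or vehicle replicate 2 (0.48), and in Socs3, which had 4 and 15 UMIs in the WT libraries, without WT replicate 2 (1.34). Among 36 interferon response genes, Ifi27 and Ifitm1 rose and 0 fell; the Ifi27 change was 0.54 ± 0.09 and fell short of a call without WT replicate 1 (0.48) or vehicle replicate 2 (0.45). No gene was called among 30 stem cell transcription factors, 30 proliferation genes, 12 G1 genes, 25 myeloid genes, 31 cytokine and niche receptors, 41 chromatin regulators, 19 MHC class I genes, 7 MHC class II genes or 33 Myc and ribosome biogenesis genes in this comparison, by edgeR or by DESeq2, which gave no adjusted p for 6 to 26 genes of each list. The unadjusted edgeR p was under 0.05 in 7, 9, 2, 11, 7, 4, 5, 2 and 3 of them in that order. The myeloid list had 20 of 25 changes above 0 and a median of 0.15. Elsewhere, where 0.519% of all genes rose and 0.145% fell, 4 of 14 basophil and mast cell genes rose (median 0.78), 1 of 17 megakaryocyte genes rose and 1 fell, 2 of 47 genes of a published neutrophil signature rose, and 1 each of 14 erythroid, 21 glucose and 20 niche genes fell. DESeq2 called 0 of the 14 basophil and mast cell genes and gave no adjusted p for 11 of them. Of the 4 that rose, Prss34 changed by −0.53 without the marked cells. This is a description only, as some of those cells were chosen by other basophil genes. Prss34 (0.51) and Fcer1a (0.67) also lost their calls without vehicle replicate 1, and Fcer1a (0.59) without WT replicate 2.

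**Figure D2:**
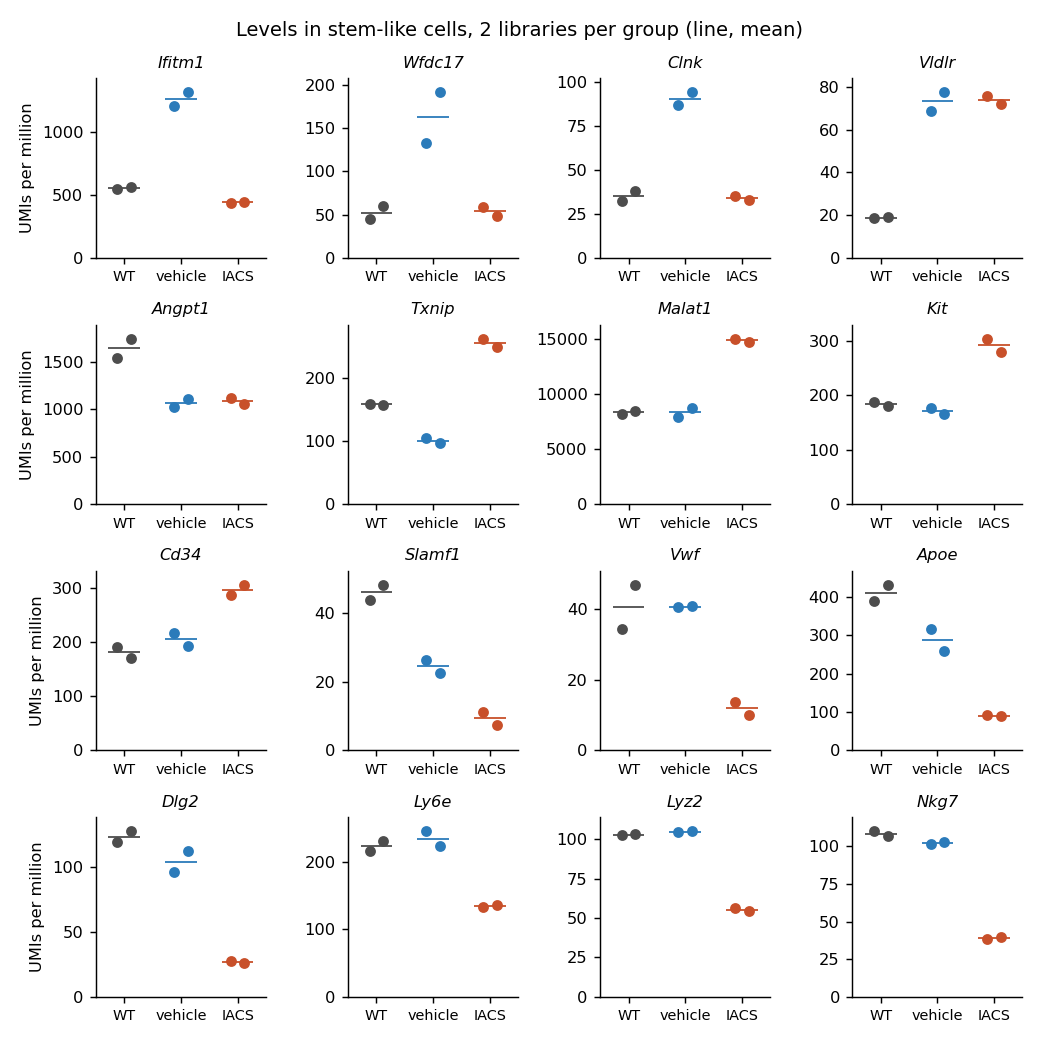
Levels of 16 genes in stem-like cells (CPM, y axis, from 0) in the 2 libraries of each group, with the mean as a line; IACS stands for IACS-70654. Ifitm1, Wfdc17 and Clnk are highest in vehicle, with IACS-70654 below WT in Ifitm1, Vldlr and Angpt1 are apart in WT, and Txnip, Malat1, Kit and Cd34 are highest and Slamf1, Vwf, Apoe, Dlg2, Ly6e, Lyz2 and Nkg7 lowest in both IACS-70654 libraries.

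With IACS-70654 against vehicle, Txnip, Malat1 and Kit rose and Apoe and the synaptic gene Dlg2 fell. Txnip (ENSMUSG00000038393, chr3:96557957-96561857, GRCm38), a thioredoxin-binding protein that limits glucose uptake, was at 160 and 157 CPM in WT, 105 and 96.3 under vehicle and 263 and 249 under IACS-70654. The 3 groups did not overlap, with vehicle lowest. Txnip fell by 0.67 ± 0.07 in vehicle against WT (edgeR adjusted p = 4.8e-07) and rose by 1.30 ± 0.07 with IACS-70654 against vehicle (edgeR adjusted p = 5.1e-15). In thinned members Txnip was detected in 37.1% and 38.4% of WT, 28.7% and 24.8% of vehicle and 48.1% and 48.0% of IACS-70654 cells, against 11.0% to 18.7% of erythroid cells. In erythroid cells of the same libraries, which had 56.8 and 58.1, 39.6 and 41.3, and 37.7 and 35.6 CPM, Txnip was not called between IACS-70654 and vehicle (log2 change −0.13).

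Malat1 (ENSMUSG00000092341, chr19:5795690-5802672, GRCm38), a nuclear long noncoding RNA, was at 8194 and 8484 CPM in WT, 7961 and 8707 under vehicle and 15050 and 14701 under IACS-70654. WT and vehicle overlapped and IACS-70654 was apart, with a log2 change of 0.80 ± 0.03 against vehicle (edgeR adjusted p = 2.2e-18). Kit (ENSMUSG00000005672, chr5:75574987-75656722, GRCm38), the stem cell factor receptor on whose protein the cells were sorted, was at 188 and 180 CPM in WT, 177 and 166 under vehicle and 304 and 279 under IACS-70654. It rose by 0.73 ± 0.06 (edgeR adjusted p = 2.8e-10), with the IACS-70654 libraries above all others. Further genes named by rule that rose were S100a6, a calcium-binding protein, by 1.09 ± 0.11, Tespa1 by 0.95 ± 0.08, the linker histone gene H1f0 by 0.93 ± 0.11, Lsamp by 0.91 ± 0.10, Ptms by 0.81 ± 0.09 and Calcrl, a receptor of the calcitonin peptide family, by 0.80 ± 0.06.

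Apoe (ENSMUSG00000002985, chr7:19696244-19701310, GRCm38), which encodes apolipoprotein E, was at 391 and 432 CPM in WT, 316 and 260 under vehicle and 91.7 and 89.5 under IACS-70654. It fell by 1.72 ± 0.07 against vehicle (edgeR adjusted p = 1e-16). Dlg2, a synaptic scaffold, was at 119 and 127, 95.8 and 112, and 27.7 and 26.1 CPM in the same order and fell by 1.94 ± 0.10, and Auts2 fell by 1.77 ± 0.11. All 3 genes were lower in both IACS-70654 libraries than in any other. These 3 genes, Ifitm1, Txnip, Malat1 and Kit were still called without the marked cells, with changes of −1.42 in Apoe, −1.67 in Dlg2, −1.46 in Auts2, −1.64 in Ifitm1, 1.23 in Txnip, 0.77 in Malat1 and 0.64 in Kit.

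Most stem cell transcription factors were not called. Of 32 listed, 30 were tested, and 1 rose and 1 fell with IACS-70654 against vehicle (1.44% and 2.68% of all genes), with a median log2 change of 0.07 against −0.0015 over all genes. Meis1 (ENSMUSG00000020160, chr11:18880428-19019651, GRCm38), a homeobox partner of Hox proteins, was at 756 and 821 CPM in WT, 776 and 865 under vehicle and 1119 and 1081 under IACS-70654. The IACS-70654 libraries were highest and the log2 change of 0.40 ± 0.05 was far below the p threshold (edgeR adjusted p = 4.9e-07), but its size fell short of 0.5. Erg had a like change of 0.40 ± 0.06, again under the size required. Prdm16, a zinc finger factor needed for stem cell maintenance, was at 18.6 and 25.0 CPM in WT, 30.3 and 25.3 under vehicle and 14.5 and 12.1 under IACS-70654, and fell by 1.11 ± 0.17 (edgeR adjusted p = 2.1e-05); without vehicle replicate 1 it missed the threshold (−0.93). Foxo1, a factor of stress resistance, rose by 0.61 ± 0.16 from 16.7 and 18.2 CPM in vehicle to 24.8 and 30.2, a call that was lost without vehicle replicate 1 (0.53), vehicle replicate 2 (0.66) or IACS-70654 replicate 2 (0.50). Runx1 at 865 to 1047 CPM, Gata2 at 92.0 to 111 and Tal1 at 83.2 to 100 CPM over the 6 libraries were not called in any of the 3 comparisons.

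**Figure D3:**
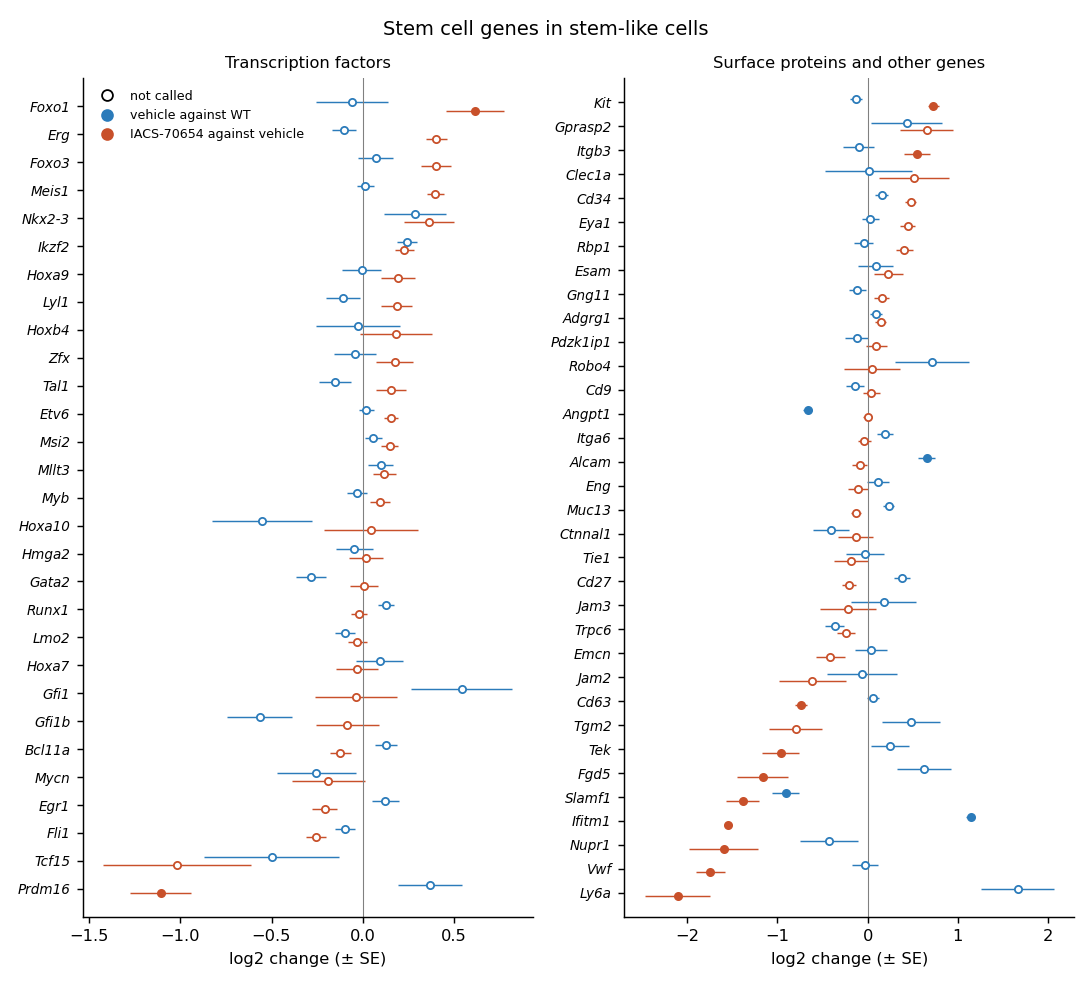
Log2 change ± SE (x axis) of the stem cell transcription factors (left) and stem cell surface and other genes (right) reported here, for vehicle against WT (blue) and IACS-70654 against vehicle (orange), ordered by the latter; filled points were called. On the left the filled points are Foxo1 and Prdm16; on the right Kit and Itgb3 are called higher and 8 genes from Cd63 to Ly6a lower with IACS-70654.

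Of 35 surface and other stem cell genes tested, 2 rose and 9 fell with IACS-70654 against vehicle (median −0.13), where 1.44% and 2.68% of all genes did; 2 rose and 2 fell in vehicle against WT (0.519% and 0.145%). Slamf1 (ENSMUSG00000015316, chr1:171767131-171801184, GRCm38) encodes CD150, which is used to isolate long-term stem cells. It was at 43.8 and 48.1 CPM in WT, 26.3 and 22.6 under vehicle and 11.2 and 7.41 under IACS-70654, and the 3 groups did not overlap. Slamf1 fell by 0.91 ± 0.15 in vehicle against WT (edgeR adjusted p = 0.00026) and by a further 1.38 ± 0.18 with IACS-70654 (edgeR adjusted p = 2.8e-06). In members without Mki67 or Top2a UMIs the latter change was −0.85 and not called. In members with at least 3 UMIs of Pf4, Slamf1 was at 119 and 78.6 CPM in WT, 87.7 and 67.9 under vehicle and 37.2 and 33.0 under IACS-70654. In the other members it was at 29.8 and 41.2, 17.6 and 15.4, and 8.98 and 5.59 CPM in that order. The part of the Pf4 cells in the fall was not tested. In thinned members it was detected in 12.5% and 11.0%, 8.17% and 4.35%, and 3.63% and 2.21% of cells. In erythroid cells the shares were 2.13% and 2.70% in WT, 2.75% and 3.00% under vehicle and 0.356% and 0.239% under IACS-70654. The share in members was thus above that in erythroid cells of the same library in all 6, and both were lowest in IACS-70654.

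Vwf, which marks platelet-biased stem cells and megakaryocytes, was at 34.5 and 46.9 CPM in WT, 40.5 and 40.8 under vehicle and 13.7 and 10.2 under IACS-70654, and fell by 1.74 ± 0.16 against vehicle. Leaving out the marked cells, the Vwf change was −0.98 (edgeR adjusted p = 0.095), from few UMIs. Members with at least 3 UMIs of Pf4, which are among those cells, held 171 and 85 Vwf UMIs under vehicle and 70 and 26 under IACS-70654. The other members held 28 and 7, and 18 and 11. Within the Pf4 cells Vwf was at 283 and 275 CPM under vehicle and 137 and 107 under IACS-70654, which was not tested. The lysosomal tetraspanin gene Cd63 fell by 0.74 ± 0.06, from 270 and 248 CPM in vehicle to 170 and 147. Other genes that fell were at low levels: Tek, the receptor of Angpt1 (20.1 and 19.5 CPM in vehicle, 10.6 and 10.2 in IACS-70654), Fgd5 (10.6 and 7.1 against 4.21 and 4.39), Nupr1 (6.51 and 8.43 against 1.87 and 3.29) and Ly6a (7.73 and 7.54 against 1.56 and 2.20). Their calls were lost without vehicle replicate 1 (−0.93 in Tek, −0.76 in Fgd5, −1.83 in Nupr1, −2.08 in Ly6a) or IACS-70654 replicate 1 (−0.99, −1.11, −1.14 and −1.81), and in Fgd5 also without IACS-70654 replicate 2 (−1.18) and in Nupr1 without vehicle replicate 2 (−1.46). Cd34, a sialomucin of early progenitors, was at 192 and 171, 218 and 194, and 288 and 306 CPM; IACS-70654 was highest, and its change of 0.48 ± 0.06 against vehicle fell short of 0.5. Itgb3 rose by 0.54 ± 0.14, a call lost without any 1 of the vehicle or IACS-70654 libraries (0.50 to 0.60). In vehicle against WT, Alcam, an adhesion molecule, rose by 0.65 ± 0.09.

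Some genes of cell cycle arrest and quiescence rose with IACS-70654, while no gene of proliferation was called. Of 20 quiescence genes, 5 rose and 0 fell against vehicle (1.44% and 2.68% of all genes), with a median of 0.35; 0 rose and 2, Txnip and Klf6, fell in vehicle against WT (0.519% and 0.145% of all genes). Cdkn1b, which encodes the CDK inhibitor p27, was at 31.8 and 40.2 CPM in WT, 31.7 and 32.4 under vehicle and 53.0 and 58.7 under IACS-70654 and rose by 0.76 ± 0.12 (edgeR adjusted p = 5.1e-05). Cdkn1a, which encodes p21, was at 15.9 and 17.6, 23 and 21.7, and 35.9 and 41.2 CPM and rose by 0.72 ± 0.14. IACS-70654 was highest for both genes. Klf6 rose by 0.56 ± 0.10 and Tsc22d3, a glucocorticoid-induced gene, by 0.57 ± 0.11. Without vehicle replicate 1 the calls of Cdkn1a (0.77), Klf6 (0.45) and Tsc22d3 (0.54) were lost, and without IACS-70654 replicate 1 those of Klf6 (0.53) and Tsc22d3 (0.57). The changes without the marked cells were 0.55 in Cdkn1a, 0.45 in Klf6 and 0.46 in Tsc22d3, short of a call, and 0.67 in Cdkn1b, still called. In members without Mki67 or Top2a UMIs none of the 4 was called, with changes of 0.57 in Cdkn1b, 0.40 in Cdkn1a, 0.20 in Klf6 and 0.55 in Tsc22d3.

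Of 30 proliferation genes, 0 were called with IACS-70654 against vehicle or in vehicle against WT, and 0 of 12 G1 genes in either, by edgeR or DESeq2. Of all genes, 1.44% rose and 2.68% fell in the first comparison and 0.519% and 0.145% in the second. At such shares, lists of this length would hold few called genes. With IACS-70654 against vehicle the unadjusted edgeR p was under 0.05 in 12 proliferation and 7 G1 genes. Mki67 was at 175 and 220 CPM in WT, 280 and 213 under vehicle and 260 and 294 under IACS-70654, with vehicle and IACS-70654 overlapping. In thinned members, no UMI of Mki67 or Top2a was found in 59.5% and 57.0% of WT, 49.8% and 54.3% of vehicle and 56.7% and 54.0% of IACS-70654 cells, so that vehicle and IACS-70654 overlapped and both WT libraries were highest. Thinned members with at least 3 UMIs of the proliferation list were 69.9% and 68.8% in WT, 71.3% and 68.0% under vehicle and 63.2% and 65.9% under IACS-70654, lowest in both IACS-70654 libraries; before thinning they were 79.2% to 81.1% in the other 4 libraries and 66.9% and 70.7% under IACS-70654. Over all members, proliferation UMIs made up 25.3 to 30.4 of 10000 UMIs in a library, with all 3 groups overlapping. Cdk6, a G1 kinase that is abundant in progenitors, was at 963 to 1307 CPM over the 6 libraries and was not called.

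Several myeloid genes fell with IACS-70654. Of 25 tested, 0 rose and 6 fell against vehicle (1.44% and 2.68% of all genes), 23 of the 25 changes were below 0 and the median was −0.35. Lyz2, lysozyme, was at 103 and 103 CPM in WT, 105 and 105 under vehicle and 56.3 and 54.4 under IACS-70654 and fell by 0.95 ± 0.08 (edgeR adjusted p = 1.5e-09). Nkg7, a granule membrane protein, was at 110 and 107, 102 and 103, and 38.7 and 39.5 CPM and fell by 1.42 ± 0.09 (edgeR adjusted p = 1.7e-12). Igfbp4 fell by 0.78 ± 0.09, Cst7 by 0.92 ± 0.15, Clec12a by 0.90 ± 0.17 and Irf8, the factor of monocytes and dendritic cells, by 0.82 ± 0.14. Monocyte and macrophage markers moved with them: their summed level over 8 genes was 17.6 and 13.7 CPM in WT, 32.8 and 20.9 under vehicle and 14.03 and 12.6 under IACS-70654, and of 3 tested Cx3cr1 and Ly86 fell (−1.20 and −1.45). Both calls were lost without vehicle replicate 1 (−0.70 and −1.08), IACS-70654 replicate 1 (−1.20 and −1.60) or IACS-70654 replicate 2 (−1.18 and −1.35). The part of such cells in the myeloid changes was not tested. In each of the 6 myeloid genes both IACS-70654 libraries lay below vehicle and WT, a description, as 2888 of 11745 tested genes lay below vehicle. The calls of Clec12a (−0.79 and −0.79) and Irf8 (−0.53 and −0.67) were lost without vehicle replicate 1 or IACS-70654 replicate 1. The azurophil granule gene Prtn3 was at 695 and 645 CPM in WT, 835 and 826 under vehicle and 604 and 615 under IACS-70654; vehicle was highest, and its changes of 0.27 ± 0.05 against WT and −0.48 ± 0.05 with IACS-70654 passed on p but not on size. In erythroid cells Prtn3 was detected in 41.2% to 45.9% of thinned cells, against 77.1% to 82.6% of members, and the part of free RNA in its level was not tested.

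A published signature of progenitors that go on to form neutrophils, which the study applied to these samples, had 47 genes tested. Of these, 1 rose and 8 fell with IACS-70654 against vehicle (1.44% and 2.68% of all genes), with a median of −0.13. Among the 8 were Ccl9, Igfbp4, Tfec, Cd63, Ifitm1, Myc and Ifitm3, and the gene that rose was Clec4e. Ccl9, a chemokine, was at 44.2 and 58.6 CPM in vehicle and 21.98 and 26.9 in IACS-70654 and fell by 1.08 ± 0.14. Tfec fell by 1.05 ± 0.19 and Ifitm3 by 0.68 ± 0.05, and Clec4e rose by 0.95 ± 0.20. The calls of Clec4e (0.94) and Tfec (−0.70) were lost without IACS-70654 replicate 1, and that of Clec4e (1.16) without vehicle replicate 1. Of 13 lymphoid genes, 1 fell with IACS-70654 against vehicle and Ighm alone rose in vehicle against WT (0.519% of all genes), a gene that marks some of the cells described next.

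Some members carried UMIs of marker genes of megakaryocytes, basophils or plasma cells, and those cells were not spread evenly over the groups. Members with at least 3 UMIs of Pf4, a platelet chemokine, were 11.5% and 12.8% of members in WT, 8.197% and 9.01% under vehicle and 5.80% and 4.76% under IACS-70654, against 0.144% to 1.19% of erythroid cells. They held 92.2% to 97.7% of all Pf4 UMIs. Members with at least 3 UMIs of the basophil and mast cell genes Mcpt8, Ms4a2 and Fcer1a were 4.98% and 2.81%, 8.197% and 5.35%, and 2.18% and 1.15% in that order. Both kinds of cells were fewest in IACS-70654, Pf4 cells most frequent in WT and basophil-marked cells in vehicle. Cells with at least 10 UMIs of Igkc, Ighm and Jchain numbered 0 in both WT libraries and 2 in each of the other 4. Leaving out all such cells left 303 to 1141 members per library.

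With all members, 8 of 17 megakaryocyte genes fell with IACS-70654 against vehicle and 0 rose (2.68% and 1.44% of all genes; median −0.75), and 9 of 14 basophil and mast cell genes fell and 0 rose (median −1.91). DESeq2 called 4 of the 17 and 3 of the 14. Without vehicle replicate 1 the calls of Itga2b (−0.55), Gp1bb (−2.28), Gzmb (−1.32) and Cyp11a1 (−1.51) were lost. Without IACS-70654 replicate 1, Gp1bb (−2.43), Gp5 (−1.28), Gzmb (−1.43), Cyp11a1 (−1.27) and Epx (−1.41) lost theirs. Without IACS-70654 replicate 2, Itga2b (−0.46), Gp1bb (−1.70) and Gzmb (−2.24) did, and without vehicle replicate 2 Gp1bb (−1.70). Pf4 was at 945 and 1190 CPM in WT, 767 and 1134 under vehicle and 604 and 391 under IACS-70654 and fell by 0.93 ± 0.12. Mcpt8, a basophil protease, was at 93.2 and 23.1, 159 and 134, and 32.0 and 32.9 CPM and fell by 2.24 ± 0.22, and Fcer1a, a subunit of the IgE receptor, fell by 3.06 ± 0.19. Leaving out the marked cells cuts away the cells high in the genes that mark them, so a smaller change in those genes follows from the choice. As a description of the other members, the changes were then 0.22 in Pf4, 0.37 in Mcpt8 and −0.80 in Fcer1a. The summed level of the megakaryocyte list was then 1279 and 1350 CPM in WT, 1123 and 1115 under vehicle and 1323 and 1250 under IACS-70654, against 2709 and 3143, 2325 and 2771, and 2272 and 1856 with all members. That of the basophil and mast cell list was 1275 and 1299, 1166 and 1121, and 1193 and 1165 CPM in the same order. With all members it was 1537 and 1315, 1733 and 1519, and 1208 and 1207. Both lists were thus also carried by the other members. Selp, which encodes P-selectin and is on the megakaryocyte list, was at 10.6 and 8.99 CPM in WT, 29.1 and 28.4 under vehicle and 11.1 and 10.2 under IACS-70654, rose by 1.51 ± 0.20 and fell by 1.46 ± 0.17, and without the marked cells still rose by 1.57 and fell by 1.47. Of 14 erythroid genes, Gata1, at 22.8 and 20.9 CPM in vehicle and 12 and 11.8 in IACS-70654, and Tfrc, the transferrin receptor, fell by 0.92 ± 0.18 and 0.52 ± 0.12. The Gata1 change without the marked cells was −0.50 (edgeR adjusted p = 0.18), and the call of Tfrc was lost without IACS-70654 replicate 1 (−0.42), vehicle replicate 1 (−0.61) or vehicle replicate 2 (−0.47).

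**Figure D4:**
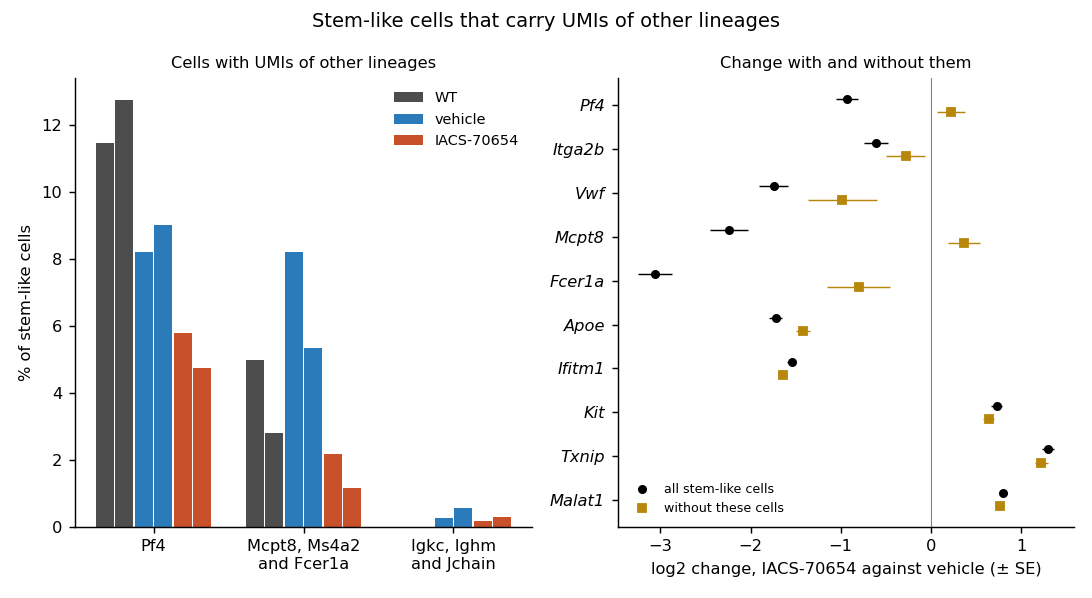
Left, percent of stem-like cells (y axis) per library, 2 bars a group, with at least 3 UMIs of Pf4, at least 3 of Mcpt8, Ms4a2 and Fcer1a, or at least 10 of Igkc, Ighm and Jchain; right, log2 change ± SE of 10 genes for IACS-70654 against vehicle with all stem-like cells (circles) and without those cells (squares). Pf4 and Mcpt8, which mark the cells left out, move from −0.93 and −2.24 to 0.22 and 0.37. Itga2b, Vwf, Fcer1a, Apoe, Ifitm1, Kit, Txnip and Malat1 stay on their side. Of these, Itga2b, Vwf and Fcer1a are no longer called without those cells, and Fcer1a also marks them.

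Interferon response genes split with IACS-70654. Of 36 tested, 4 rose and 3 fell against vehicle (1.44% and 2.68% of all genes), 26 changes were above 0 and the median was 0.28. Ifi27l2a was at 16.6 and 13.7 CPM in WT, 25.4 and 24.8 under vehicle and 60.3 and 71.1 under IACS-70654 and rose by 1.33 ± 0.13 (edgeR adjusted p = 6.5e-09). Oasl2, of the oligoadenylate synthetase family, rose by 1.24 ± 0.19, Rtp4 by 0.88 ± 0.13 and Irf7, a factor that amplifies the type I interferon response, by 1.06 ± 0.22; the call of Irf7 was lost without vehicle replicate 1 (0.66). Ly6e, a surface protein of the Ly6 family, was at 215 and 231, 245 and 222, and 133 and 135 CPM and fell by 0.85 ± 0.06 (edgeR adjusted p = 4.3e-11), together with Ifitm1 and Ifitm3. The IACS-70654 libraries were thus highest in the first group of genes and lowest in the second. Of 19 MHC class I genes, 0 were called in any comparison by edgeR or DESeq2, with an unadjusted edgeR p under 0.05 in 9 for IACS-70654 against vehicle and in 8 against WT. Of 7 MHC class II genes H2-Ab1 alone rose (0.77 ± 0.18), a call lost without vehicle replicate 1 (0.71) or either IACS-70654 library (0.78 and 0.77).

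Genes of growth and metabolism fell in part. Of 33 Myc and ribosome biogenesis genes, 3 fell and 1 rose with IACS-70654 against vehicle (2.68% and 1.44% of all genes), 29 of the 33 changes were below 0 and the median was −0.24. Myc was at 86.2 and 78.1 CPM in WT, 92.6 and 99.0 under vehicle and 63.0 and 70.3 under IACS-70654 and fell by 0.56 ± 0.09 (edgeR adjusted p = 5.2e-05). Srm, spermidine synthase, fell by 0.65 ± 0.09 and Odc1, the first enzyme of polyamine synthesis, by 0.55 ± 0.11, whereas Mxd1, which opposes Myc, was at 18.3 and 20.9 CPM in vehicle and 37.3 and 34.0 in IACS-70654 and rose by 0.88 ± 0.14. The calls of Myc (−0.46) and Odc1 (−0.36) were lost without IACS-70654 replicate 1, and those of Odc1 (−0.52) and Mxd1 (0.75) without vehicle replicate 1. Of 21 genes of glucose handling, Txnip rose, the glucose transporter gene Slc2a3 fell by 0.54 ± 0.12 and the phosphofructokinase gene Pfkl by 0.58 ± 0.13. Slc2a3 missed a call without vehicle replicate 1 (−0.52), IACS-70654 replicate 1 (−0.62) or IACS-70654 replicate 2 (−0.48), and Pfkl without vehicle replicate 2 (−0.42) or IACS-70654 replicate 1 (−0.53).

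Chromatin regulators, among them the targets of the drug, were not called: 0 of 41 in each of the 3 comparisons, with a median of 0.07 for IACS-70654 against vehicle. In these comparisons 0.145% to 2.72% of all genes were called in a direction, so few of 41 would be called at those shares. DESeq2 called 0 as well, and the unadjusted edgeR p was under 0.05 in 10 against vehicle and in 12 for IACS-70654 against WT. Crebbp, which encodes CBP, was at 152 and 162 CPM in WT, 174 and 172 under vehicle and 215 and 215 under IACS-70654, a change of 0.28 ± 0.06 against vehicle that was under the size required. Ep300 was at 65.3 to 81.0 CPM over the 6 libraries. Of 31 cytokine and niche receptors, Kit rose and 2 fell with IACS-70654 against vehicle, where 1.44% and 2.68% of all genes did, among them Tgfbr3 (−1.04 ± 0.11), and of 20 niche interaction genes Kit and S1pr1 rose and 2 fell, among them Tek. S1pr1, a receptor that guides exit from tissues, was at 6.63 and 4.30 CPM in WT, 11.8 and 11.5 under vehicle and 25.9 and 23.1 under IACS-70654 and rose by 1.05 ± 0.18; without IACS-70654 replicate 1 it missed the threshold (0.95). Of 27 immediate early genes, Ier5 (0.50 ± 0.10) and Klf6 rose and Fosb (−0.71 ± 0.09) and Myc fell in the same comparison. The Ier5 call was lost without vehicle replicate 1 (0.28) or either IACS-70654 library (0.54 and 0.48). Of 10 nuclear noncoding RNAs, Malat1 rose and Meg3, which is transcribed from an imprinted locus and was at 18.3 and 15.1 CPM in vehicle and 2.96 and 1.098 in IACS-70654, fell by 2.93 ± 0.31.

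IACS-70654 members were also compared with WT, which differs from them by the tumor and the drug together. Vldlr (log2 change 1.91 ± 0.13), Camk2d (1.22 ± 0.12), S100a6 (1.19 ± 0.12), Abhd17b (1.15 ± 0.07), Ier5 (1.13 ± 0.12) and Slco3a1 (1.07 ± 0.06) were the genes named by rule that rose, beside Igkc and Ighm, which rest on few cells. Dlg2 (−2.25 ± 0.10), Apoe (−2.25 ± 0.07), Nkg7 (−1.55 ± 0.09), Auts2 (−1.47 ± 0.11), Slc14a1 (−1.18 ± 0.13), Pf4 (−1.15 ± 0.12) and the survival gene Bcl2 (−1.15 ± 0.09) fell. Pf4 UMIs came almost wholly from the Pf4 cells described above, and in members chosen to lack them the change was −0.09. Slco3a1, an organic anion transporter, was at 133 and 127 CPM in WT, 210 and 201 under vehicle and 281 and 295 under IACS-70654. Bcl2 was at 174 and 175, 185 and 147, and 87.3 and 76.6 CPM. Slco3a1 was thus intermediate in vehicle, whereas WT and vehicle overlapped for Bcl2.

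Among listed genes, IACS-70654 against WT called 4 quiescence genes higher and 0 lower of 20 (2.09% and 2.72% of all genes), with Cdkn1a up by 1.11 ± 0.16, Ccng2 by 0.88 ± 0.18, Txnip by 0.63 ± 0.06 and Cdkn1b by 0.56 ± 0.13. The G1 gene Ccnd2, which encodes cyclin D2, was at 173 and 193 CPM in WT, 137 and 140 under vehicle and 114 and 112 under IACS-70654, with no overlap between the 3 groups, and fell by 0.76 ± 0.07 against WT (edgeR adjusted p = 3e-09). E2f1, which drives entry into S phase, fell by 0.62 ± 0.16, a call lost without WT replicate 1 (−0.59), WT replicate 2 (−0.65) or either IACS-70654 library (−0.70 and −0.57). Of 30 proliferation genes, the replication helicase genes Mcm2 (−0.51 ± 0.11) and Mcm3 (−0.55 ± 0.07) fell and Cenpf, a kinetochore gene of G2 and mitosis, rose (0.52 ± 0.11). Of 30 stem cell transcription factors, Nkx2-3 rose and 4 fell, among them Prdm16, Gfi1b and Tcf15, and of 35 surface and other genes 3 rose and 7 fell. Without WT replicate 1 the calls of Ccng2 (0.77), Cdkn1b (0.40), Mcm2 (−0.45) and Cenpf (0.33) were lost, and without WT replicate 2 those of Prdm16 (−0.53), Gfi1b (−0.50) and Nkx2-3 (0.51). Without IACS-70654 replicate 1 or 2 the calls of Mcm2 (−0.53 and −0.49), Gfi1b (−0.85 and −0.53) and Prdm16 (−0.90 and −0.64) were lost, without replicate 2 also Cdkn1b (0.49) and Cenpf (0.31), and without replicate 1 Nkx2-3 (0.54). The Tcf15 call (−1.52 ± 0.40) was lost without any 1 of 5 libraries. Without the marked cells Txnip and Kit changed by 0.48 and 0.49 against WT, just under the size required.

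To see where the members differ from other early progenitors, Flt3+ progenitors of the same libraries were set beside them. These were 625 cells with at least 2 Flt3 UMIs and at most 1 UMI of Hlf, Mecom and Procr. They met the same limits on Dntt, Klf1, Car1 and Elane. The rule for members set no limit on Flt3, and 31.6% to 41.5% of members had a Flt3 UMI without thinning. Flt3 alone therefore did not separate the 2 kinds of cells. Genes of the rule and Flt3 were left out of a test of whether a group difference is unlike in the 2 kinds of cells. Of 10775 genes, 6 (0.0557%) passed for vehicle against WT and 55 (0.51%) for IACS-70654 against vehicle, 16 with the difference above 0 in stem-like minus Flt3+ cells and 39 below 0. Without vehicle replicate 1 or IACS-70654 replicate 1 the latter count was 24, and without IACS-70654 replicate 2 it was 20; without WT replicate 1 the former was 1. Flt3+ cells also had fewer UMIs in IACS-70654, with medians of 5618 and 5702 against 7506 to 8897 in the other libraries, and the part of that depth in their choice was not tested.

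Several stem cell genes were higher with IACS-70654 in Flt3+ progenitors than their change in members would give. Meis1 was at 184 and 323 CPM in WT, 231 and 233 under vehicle and 532 and 608 under IACS-70654 Flt3+ cells, and its change differed by −0.82 between members and Flt3+ cells (edgeR adjusted p = 0.00039). Angpt1 was at 369 and 362, 110 and 162, and 288 and 464 CPM in Flt3+ cells, so that IACS-70654 lay above vehicle there but not in members (difference −1.40). Gata2 (−1.70), Ikzf2 (−1.12), Msi2 (−0.57), Lsamp (−1.71) and Cd63 (−1.30) differed in the same direction. Ikzf2 was at 160 and 131, 100 and 103, and 236 and 312 CPM in Flt3+ cells, and Msi2 at 296 and 278, 247 and 239, and 403 and 435. In Meis1, Angpt1, Ikzf2 and Msi2 both IACS-70654 libraries were above both vehicle libraries in Flt3+ cells. This is a description only, as these genes were picked from those the test had called. The share of all genes with such a lack of overlap in Flt3+ cells was not counted.

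MHC class II genes differed in the other direction. H2-Aa was at 41.5 and 41.4 CPM in WT, 95.1 and 111 under vehicle and 1.88 and 8.26 under IACS-70654 Flt3+ cells, the last from 2 and 6 UMIs, and at 22.9 and 13.3, 12.6 and 9.32, and 14.2 and 17.0 CPM in members. Its IACS-70654 against vehicle change was 4.94 higher in members (edgeR adjusted p = 1.9e-09), and H2-Ab1 (2.51), Cd74 (5.48) and H2-Eb1 (5.85) went the same way on few UMIs. The 8 monocyte and macrophage markers had the same order in Flt3+ cells, with summed levels of 173 and 131 CPM in WT, 256 and 237 under vehicle and 69.4 and 52.3 under IACS-70654, and their part in the class II difference was not tested. For Txnip (difference −0.36, edgeR adjusted p = 0.62), Malat1 (−0.12, 0.26), Kit (−0.25, 0.64), Ifitm1 (−0.22, 0.53) and Apoe (−1.01, 0.23) a difference between the 2 kinds of cells was not detected, which does not show that they are alike.

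**Figure D5:**
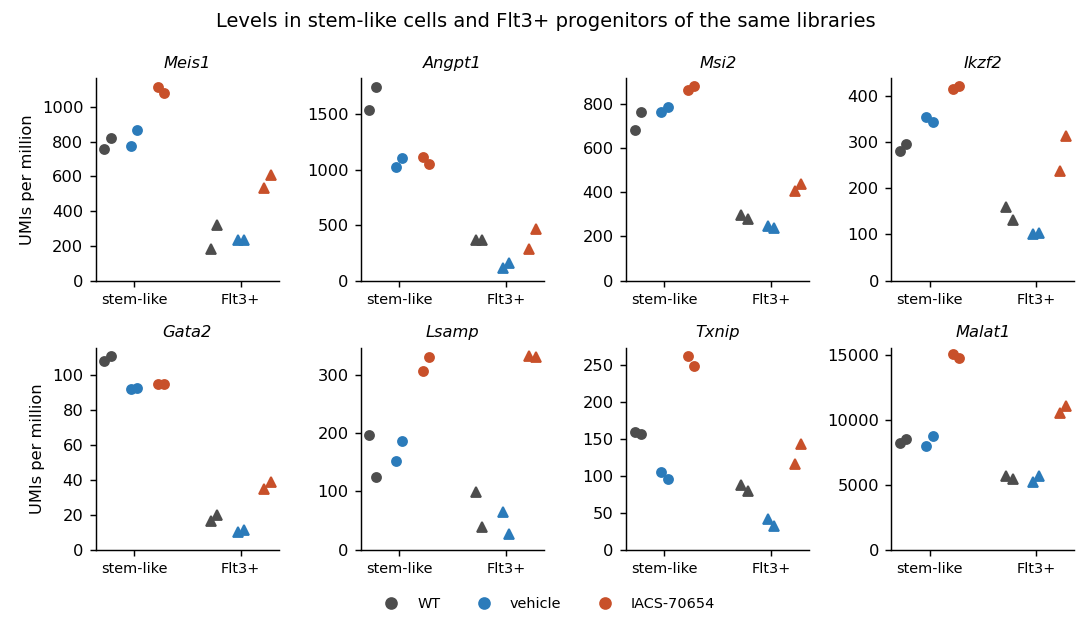
Levels of 8 genes (CPM within each kind of cell, y axis, from 0) in stem-like cells (circles) and Flt3+ progenitors (triangles) of the same 6 libraries, 2 points a group. Meis1, Angpt1, Msi2, Ikzf2, Gata2 and Lsamp are higher in the IACS-70654 than in the vehicle triangles, while Txnip and Malat1 are higher with IACS-70654 in both kinds of cells.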

How the data were processed

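Per the file headers, the authors made the deposited count matrices with CellRanger multi 7.2.0, which aligned reads, counted UMIs per gene and cell, called cells and assigned them to samples by CellPlex tag; the build mm10 is from the submitters' processing notes. Values are raw UMI counts, without normalization, from 2253533 to 6415319 UMIs per library over members; that number limits precision in low genes. The members and all gene lists were chosen with earlier results of these data known. Gene positions are those of GRCm38.p6 genes with the same identifier. No doublet caller was run. Controls by the label are called WT here.

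UMIs of members were summed per library and fitted in 1 model over 6 libraries (edgeR 4.0.16, filterByExpr, TMM, quasi-likelihood test; R 4.3.3) with Benjamini-Hochberg adjustment over all genes tested. CPM was per 1000000 member UMIs without TMM. SE is the log2 change divided by the square root of F. Flt3+ progenitors were compared in a model with library blocks. Shares were compared by exact permutation (scipy 1.17.1). Named genes were those of lists of stem cell transcription factors, stem cell surface and other genes, quiescence, proliferation, G1, myeloid, lymphoid, megakaryocyte, erythroid, basophil and mast cell, a published neutrophil signature that the study used, receptors, chromatin, interferon, MHC class I and II, immediate early, Myc and ribosome, nuclear noncoding RNA, glucose, niche and other cell types. Added to these were, per comparison, the 8 highest and 8 lowest changes among called genes of at least 50 CPM on average without overlap between libraries, and Malat1, Txnip, Prtn3 and Ms4a3, which the study names; Ms4a3 was not called in any comparison. A few genes are not reported here, though they remain in the fits and counts. Replicate libraries differed by more than counting noise (chi-square per gene 1.28, 1.76 and 1.39). Differences between cells can also give this, so it does not settle whether the 2 libraries of a group were separate pools. All libraries were counted. The steps were tested on simulated counts.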

Additional observations from a re-analysis of the deposited data

Results flagged for a closer look

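Genes named in the text are given here where their group difference was unlike in stem-like cells and Flt3+ progenitors, by edgeR's quasi-likelihood test of the interaction (adjusted p under 0.01, difference over 0.5), as the log2 change in stem-like cells minus that in Flt3+ cells. For IACS-70654 against vehicle the difference was above 0 in H2-Eb1 (5.85), Cd74 (5.48), H2-Aa (4.94), H2-Ab1 (2.51), Cd52 (0.96) and Pclaf (0.86). It was below 0 in Mcpt8 (−3.32), Cpa3 (−2.95), Selp (−2.60), Lsamp (−1.71), Gata2 (−1.70), Angpt1 (−1.40), Cd63 (−1.30), Ikzf2 (−1.12), Slco3a1 (−0.95), Wfdc17 (−0.90), Meis1 (−0.82) and Msi2 (−0.57). For vehicle against WT the difference was above 0 in Ms4a2 (8.47), Prss34 (6.79), Mcpt8 (3.41) and Pf4 (2.29) and below 0 in H2-Aa (−1.99). Ms4a2 had 0 UMIs in Flt3+ cells of both vehicle libraries, so its fitted difference is no measure of size. In Flt3+ cells Prss34 had 81 and 2 UMIs in the WT libraries and Mcpt8 109 and 15. Prss34, another basophil gene, changed by −0.53 in vehicle against WT in members without the marked cells, given as a description. Ms4a2, Mcpt8 and Pf4 mark those cells, so no test without them is given. Groups of 2 libraries were too small for a check on single outlying libraries.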

How the results depend on the processing

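The share of stem-like cells stayed higher in IACS-70654 than in vehicle (log2 ratio 0.36 to 0.51) and than in WT (0.33 to 0.50) under every alternative to the rule, and without any 1 library (0.38 to 0.55 and 0.34 to 0.45). Every alternative kept Hlf in the rule, and Hlf was itself higher with IACS-70654. The part of Hlf in the higher share was therefore not tested by them. For vehicle against WT the log2 ratio was −0.07 and turned to 0.023 with at least 3 stem gene UMIs, to 0.031 in thinned cells and to 0.012 without vehicle replicate 1 (range −0.16 to 0.012 without 1 library).

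Counts of called genes, higher and lower, for vehicle against WT, IACS-70654 against vehicle and IACS-70654 against WT were 61 and 17, 169 and 315, and 246 and 320. They were 184 and 157, 700 and 1001, and 859 and 1092 at adjusted p under 0.05 with no minimum change. DESeq2 (1.42.0) gave 17 and 7, 43 and 114, and 87 and 141, and 2 and 16 for the genes unlike in Flt3+ progenitors. With no filter on low counts, 101 were higher in vehicle against WT; with total UMIs only, 11 were lower in that comparison and 380 higher and 228 lower for IACS-70654 against WT. Without members that had Mki67 or Top2a UMIs, IACS-70654 gave 47 and 115 against vehicle and 94 and 128 against WT, from fewer cells. Without the marked cells, chosen after seeing the data as was leaving out Pf4 cells alone, 109 were higher against vehicle, and 228 rather than 320 were lower against WT. Without 1 library the counts ran from 47 to 71 and 10 to 21, from 77 to 189 and 167 to 326, and from 159 to 299 and 200 to 341, and for genes unlike in Flt3+ progenitors from 1 to 10 (vehicle against WT) and 20 to 60 (IACS-70654 against vehicle). The lowest values came without vehicle replicate 1 (10 and 77), IACS-70654 replicate 1 (167 and 200), IACS-70654 replicate 2 (20) and WT replicate 1 (47, 159 and 1).

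Replicate numbers did not pair the libraries: deviations of libraries with the same number correlated at 0.01 to 0.04. The replicate block gave 67 and 18, 173 and 331, and 259 and 330 called genes.

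Of 152 gene changes tabulated, 140 were called and 53 kept their call and direction under every alternative that gave an adjusted p; DESeq2 lost 49 and gave no adjusted p for 12 (vehicle against WT) and 2 (IACS-70654 against vehicle), leaving out cells with Mki67 or Top2a UMIs 56, leaving out the marked cells 37, and IACS-70654 replicate 1 or vehicle replicate 1 34 each. Leaving out the marked cells by itself lowers the genes that mark them, which are all those named next but Prss34. Prss34 is a basophil gene too, so its change is no independent check. Without the marked cells the direction turned in Igkc (−0.036), Jchain (−0.17), Prss34 (−0.53) and Fcer1a (−0.98) for vehicle against WT. It also turned in Mcpt8 (0.37), Igkc (0.18), Pf4 (0.22, and 0.20 without Pf4 cells alone), Prss34 (0.44) and Ms4a2 (0.059) for IACS-70654 against vehicle. Cenpf turned to −0.43 for IACS-70654 against WT without cells with Mki67 or Top2a UMIs. The causes were not tested beyond the cells left out. At 2 libraries a group, genes with few UMIs such as Fgd5, Ly6a, Nupr1 and Socs3, with 4 to 58 UMIs in a library, depended on single libraries. So did genes at higher levels such as Klf6 and Apoe for vehicle against WT, and the part of depth was not tested.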
